A study of Mus musculus with 12 samples.

Results

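Toll-like receptors are the innate immune system's membrane-bound sensors of microbial products and of molecules released from injured tissue. 10 genes of this system, the receptors Tlr1 to Tlr9 and the adaptor Myd88, were followed in the mouse left ventricle after an ischaemic injury. They were chosen by gene symbol from the 18050 genes of the expression table. All 10 were listed and all 10 passed the filter on low counts. RNA sequencing was done on left ventricles of wild-type mice, taken 7 days after sham surgery or after MI, read here as myocardial infarction. Each group held 6 libraries, and the submitters' processing notes name tools for replicates 3 to 6 and none for replicates 1 and 2, which are treated here as 2 sets. The labels give no strain, sex or age and do not say that libraries came from separate animals. All p-values are thus relative to library-to-library spread, part or all of which could be technical.

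Receptors of the surface class (Tlr1, Tlr2, Tlr4, Tlr5 and Tlr6) sit in the plasma membrane and bind lipids and proteins, such as lipopeptides for Tlr2 with Tlr1 or Tlr6, lipopolysaccharide for Tlr4 and flagellin for Tlr5. Receptors of the endosomal class (Tlr3, Tlr7, Tlr8 and Tlr9) sense nucleic acids inside the cell. Myd88 links every receptor of this family except Tlr3 to the kinases that switch on NF-kB, while Tlr3 signals through the adaptor Ticam1 (TRIF), which Tlr4 also uses. In the heart these receptors are known from resident and infiltrating leukocytes and, for some of them, from cardiomyocytes and vessels.

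9 of the 10 genes rose after MI, 0 fell (0 also at an unadjusted p under 0.05, and 0 by DESeq2), and Tlr5 was not called. Among all 14227 genes tested, 27.5% rose and 29.0% fell by the same rule. A gene is called here when it passed an adjusted p of 0.05 in the same direction in 2 tests with edgeR's quasi-likelihood method, one over all 12 libraries and one with replicates 3 to 6 of a group summed and counted once. The second test was added because replicates 3 to 6 of a group lay very close together. The median log2 fold change of the 10 genes was 1.66 over 12 libraries, against 0.02 for all genes tested. In replicates 1 and 2 alone, all 10 passed upward, as did 34.1% of all genes tested, with 32.9% downward. In replicates 3 to 6 alone, 9 passed upward, as did 42.3% of all genes tested, with 39.6% downward. No MI library overlapped a sham library for 8 of the 10 genes, the exceptions being Tlr4 and Tlr5. Among all genes tested, 20.8% had all 6 MI libraries above all 6 sham libraries.

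**Figure D1:**
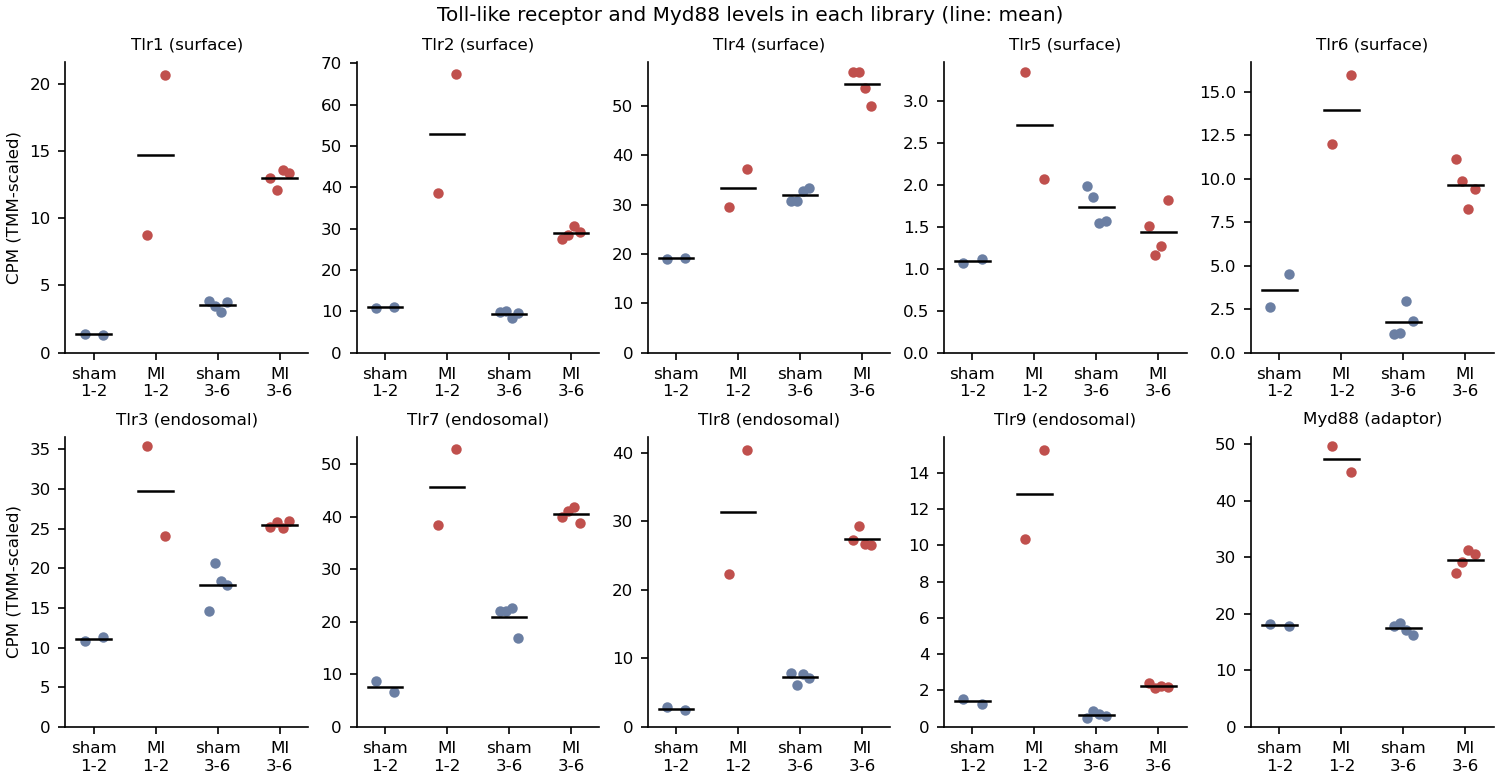
Level of each of the 10 genes in each library, in CPM (counts scaled to a common library size by TMM) on linear axes from 0, with 1 point per library and a line at the mean of each group in each set. Levels in MI libraries lie above those in sham libraries of the same set for every gene except Tlr5, whose libraries of replicates 3 to 6 overlap.

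Several features of the libraries move with the groups. Expected counts summed to between 9140353 and 18602226 per library. Ventricular cardiomyocyte markers fell (7 of 7), from 83000 to 83100 CPM in sham to 5220 to 8680 CPM in MI for replicates 1 and 2, and from 66000 to 67100 to 22100 to 22700 CPM for replicates 3 to 6. The summed level of 14 macrophage and monocyte markers went from 720 to 724 CPM in sham to 3920 to 5820 CPM in MI for replicates 1 and 2, and from 1260 to 1330 to 3650 to 3770 CPM for replicates 3 to 6. None of the 14 was at 0 in any group, 9 rose, Cd163 fell, and Mrc1, Ly6c2, Lyve1 and Timd4 were not called. For both marker lists the share over all genes was 27.5% that rose and 29.0% that fell. In whole tissue, more cells of a type and more RNA per cell cannot be told apart. MI replicates 3 to 6 also carried 157 to 163 CPM of 4 lung surfactant genes, against at most 0.362 CPM in any other library. In the same set the beta-globin genes Hbb-bs and Hbb-bt made up 99.88% or more of the adult beta-globin counts in sham and at most 0.194% in MI, so that mouse strain and group cannot be told apart in replicates 3 to 6. The part of these differences in the results was not tested, and results are given by set.

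Tlr2, which pairs with Tlr1 or Tlr6 to bind bacterial lipopeptides, was the most abundant of Tlr1 to Tlr9 in the MI libraries of both sets when levels were scaled by length. Tlr2 stood at 10.8 and 11.1 CPM in sham replicates 1 and 2 and at 38.7 and 67.3 CPM in MI replicates 1 and 2. It read 9.80, 9.94, 8.36 and 9.54 CPM in sham replicates 3 to 6 and 27.6, 28.6, 30.6 and 29.3 CPM in the MI replicates of that set. Sham libraries lay slightly higher in replicates 1 and 2 than in replicates 3 to 6, and every MI library lay above all of them, with MI replicate 2 the highest. On the log2 scale the rise was 1.86 (SE 0.152; adjusted p = 3.55e-07 by edgeR over 12 libraries and 0.00234 with replicates 3 to 6 counted once). The exact two-sided permutation test on CPM gave 0.00216 over 12 libraries, and 0.333 in replicates 1 and 2, the smallest value that 2 against 2 allows.

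Tlr1 started from a low level. It read 1.37 and 1.34 CPM in sham replicates 1 and 2 against 8.72 and 20.6 CPM in MI. Sham replicates 3 to 6 gave 3.85, 3.48, 2.99 and 3.74 CPM, and MI replicates 3 to 6 gave 13.0, 12.1, 13.6 and 13.3 CPM. The rise was thus drawn from a lower sham level in replicates 1 and 2, and MI replicates 1 and 2 differed from each other by a factor of 2.37. Over 12 libraries Tlr1 rose by 2.37 on the log2 scale (SE 0.284; adjusted p = 9.79e-06 and 0.00553 by edgeR's 2 tests).

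Tlr6, the other partner of Tlr2, rose by a similar amount, namely 2.26 on the log2 scale (SE 0.233; adjusted p = 2.70e-06 and 0.0027). Its sham libraries read 2.60 and 4.54 CPM in replicates 1 and 2 and 1.05, 1.12, 2.99 and 1.81 CPM in replicates 3 to 6. The latter rested on few counts, namely 8.57, 9.18, 24.98 and 14.69. Its MI libraries read 11.98 and 15.94 CPM in the first set and 11.1, 9.84, 8.27 and 9.40 CPM in the second. Tlr6 was the one gene of the 10 with an appreciably larger log2 fold change in replicates 3 to 6 (2.51) than in replicates 1 and 2 (1.96), a difference that did not pass the test (adjusted p = 0.322).

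Counts of Tlr1 and Tlr6 need care, because part of their sequence is identical. On the GRCm38 build Tlr1 lies at chr5:64924679-64933563 and Tlr6 at chr5:64952031-64960097, both on the minus strand, 18467 bases apart. Of the distinct 50-base windows of their GENCODE transcripts, 15.4% of those of Tlr1 and 12.3% of those of Tlr6 also occurred in another gene's transcripts, mainly each other's, while the share was at most 0.02% for the other members. The longest identical stretch, 229 bases of coding sequence in both genes, is shown because a read from within it fits both. It lies at chr5:64925537-64925765 in Tlr1 and at chr5:64953828-64954056 in Tlr6 (minus strand, all in lower case because no base differs).
Tlr1 and Tlr6: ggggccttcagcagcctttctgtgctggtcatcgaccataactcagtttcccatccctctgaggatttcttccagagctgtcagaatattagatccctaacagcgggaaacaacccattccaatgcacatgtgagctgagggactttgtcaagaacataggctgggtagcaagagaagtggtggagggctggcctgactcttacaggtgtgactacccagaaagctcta
The deposited counts are estimates that can share such reads between genes, and the split between Tlr1 and Tlr6 is uncertain.

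Tlr4, the receptor for lipopolysaccharide and for several matrix fragments, had the smallest rise of the called genes over 12 libraries. In replicates 3 to 6 Tlr3 (0.56) was lower, and Myd88 (0.81) was nearly the same as Tlr4. Tlr4 read 19.0 and 19.2 CPM in sham replicates 1 and 2 against 29.4 and 37.2 CPM in MI. In replicates 3 to 6 the sham libraries read 30.7, 30.8, 32.7 and 33.3 CPM and the MI libraries 57.0, 56.9, 53.7 and 50.1 CPM. Both groups sat higher in replicates 3 to 6, and MI replicate 1 lay below all sham libraries of that set, while within each set the groups did not overlap. On the log2 scale Tlr4 rose by 0.80 in the first set and by 0.82 in the second, the closest match between sets among the members. Over 12 libraries it was 0.78 (SE 0.0649, adjusted p = 4.07e-07 and 0.00507 by edgeR's 2 tests). Without the set in the model the call was lost (adjusted p = 0.125 with replicates 3 to 6 counted once).

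Tlr5, the flagellin receptor, had few counts and no call. Its sham libraries read 1.07 and 1.12 CPM in replicates 1 and 2, and its MI libraries 3.35 and 2.07 CPM. In replicates 3 to 6, sham read 1.98, 1.86, 1.55 and 1.57 CPM and MI read 1.51, 1.17, 1.28 and 1.82 CPM. The MI libraries were the higher ones in the first set, while in the second the groups overlapped. Log2 fold changes were 1.30 in replicates 1 and 2 (adjusted p = 0.0307) and -0.22 in replicates 3 to 6 (adjusted p = 0.397). Over 12 libraries the value was 0.29 (SE 0.288, adjusted p = 0.368 and 0.237), and the exact permutation p on CPM was 0.42.

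Of the endosomal receptors, Tlr8 and Tlr7 sense single-stranded RNA and are neighbours on the X chromosome, at chrX:167242696-167264329 and chrX:167304929-167330558 on the minus strand, with 40599 bases between them. Tlr8 read 2.90 and 2.38 CPM in sham replicates 1 and 2 against 22.3 and 40.5 CPM in MI. It read 7.82, 6.09, 7.77 and 7.12 CPM in sham replicates 3 to 6 against 27.3, 29.3, 26.7 and 26.6 CPM in MI. Its MI levels were alike in both sets, and its sham levels were not. Over 12 libraries the rise of Tlr8 was 2.44 on the log2 scale (SE 0.264; adjusted p = 4.09e-06 and 0.00338), 3.56 in replicates 1 and 2 and 1.97 in replicates 3 to 6.

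Tlr7 followed the same order at a higher level. Sham libraries read 8.70 and 6.63 CPM in replicates 1 and 2 and 22.1, 22.0, 22.6 and 16.9 CPM in replicates 3 to 6. MI libraries read 38.4 and 53.0 CPM, and then 39.9, 41.2, 41.9 and 38.9 CPM. The groups did not overlap, and the sham level of the second set lay above that of the first by more than the spread in either. Tlr7 rose by 1.47 on the log2 scale over 12 libraries (SE 0.247; adjusted p = 1.66e-04 and 0.00747), 2.57 in replicates 1 and 2 and 1.00 in replicates 3 to 6.

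Tlr9, the sensor of unmethylated CpG DNA, rested on the fewest counts of the called genes. Its sham libraries held 20 and 17 counts in replicates 1 and 2 and 4 to 7 in replicates 3 to 6. Its MI libraries held 216 and 331 counts, and then 35 to 40. In CPM these were 1.53 and 1.27 in sham against 10.4 and 15.3 in MI for replicates 1 and 2, and 0.467, 0.870, 0.717 and 0.604 against 2.42, 2.15, 2.25 and 2.18 for replicates 3 to 6. MI levels of Tlr9 were thus far higher in the first set, unlike those of Tlr7 and Tlr8. Tlr9 rose by 2.47 on the log2 scale (SE 0.27; adjusted p = 4.49e-06 and 0.00326), 3.18 in replicates 1 and 2 and 1.80 in replicates 3 to 6.

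Tlr3, which binds double-stranded RNA and does not use Myd88, showed the smallest rise of the endosomal class. It read 10.8 and 11.3 CPM in sham replicates 1 and 2 and 35.4 and 24.0 CPM in MI. In replicates 3 to 6 it read 14.6, 20.6, 18.4 and 17.9 CPM in sham and 25.2, 25.8, 25.0 and 26.0 CPM in MI. MI replicate 1 was the highest library, whereas 6 of the other 8 receptors had their highest value in MI replicate 2. Its rise was 0.82 on the log2 scale (SE 0.162; adjusted p = 5.83e-04 and 0.0145). The call ended without sham replicate 1 (log2 fold change 0.72, adjusted p = 0.0713 with replicates 3 to 6 counted once) and without sham replicate 2 (0.73, adjusted p = 0.0682). Of its exonic bases, 7.3% overlap an antisense gene, and the sources used here do not state whether the counting used strand.

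Myd88 itself rose by less than most of the receptors. It read 18.2 and 17.9 CPM in sham replicates 1 and 2 and 17.9, 18.4, 17.1 and 16.3 CPM in sham replicates 3 to 6, a common sham level across sets. MI replicates 1 and 2 read 49.7 and 45.1 CPM, and MI replicates 3 to 6 read 27.2, 29.2, 31.2 and 30.6 CPM. On the log2 scale the adaptor rose by 0.98 (SE 0.105; adjusted p = 3.51e-06 and 0.00322), 1.39 in the first set and 0.81 in the second. The gene lies at chr9:119335934-119341411 on the minus strand, and 11.3% of its exonic bases overlap Acaa1a on the other strand.

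**Figure D2:**
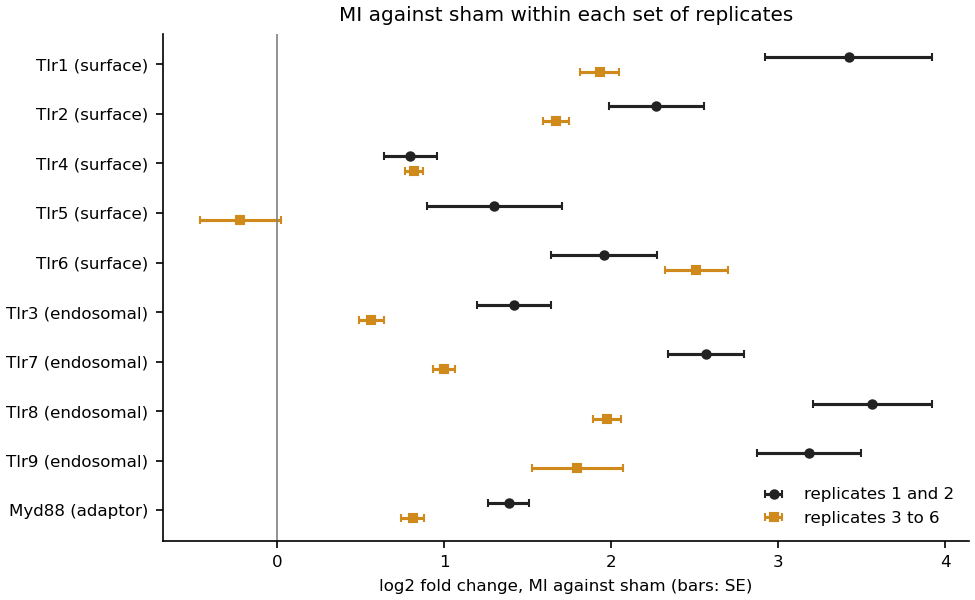
Log2 fold change of MI over sham for each gene, with its standard error, in replicates 1 and 2 and in replicates 3 to 6 (edgeR fits of each set). Tlr8 and Tlr1 are highest in replicates 1 and 2 (3.56 and 3.42), Tlr6 is highest in replicates 3 to 6 (2.51), and Tlr5 lies on both sides of 0.

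Receptors of both classes rose. 4 of 5 surface receptors and 4 of 4 endosomal receptors were called higher, where 27.5% of all genes were. Their median log2 fold changes were 1.86 and 1.95 over 12 libraries, against 0.02 for all genes. By set the medians were 1.96 and 2.88 in replicates 1 and 2, and 1.67 and 1.40 in replicates 3 to 6. The ranges of both classes overlapped in both sets, from 0.80 to 3.42 (surface) and 1.42 to 3.56 (endosomal) in the first, and from -0.22 to 2.51 and 0.56 to 1.97 in the second. In deposited TPM (transcript levels scaled by gene length to a common library total), the summed surface receptors averaged 11.8 in sham and 76.8 in MI for replicates 1 and 2, and the endosomal receptors 7.23 and 61.99. For replicates 3 to 6 the surface sums were 12.2 and 49.8 and the endosomal sums 12.5 and 40.6.

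The share of the surface class in the summed TPM of the 9 receptors moved in opposite directions in the 2 sets, and this difference was not tested. It was 60.1% and 64.0% in sham against 51.3% and 58.0% in MI for replicates 1 and 2, so that both MI libraries were lower. For replicates 3 to 6 it was 50.3%, 47.6%, 47.8% and 52.0% in sham against 55.6%, 54.4%, 54.8% and 55.4% in MI, so that all 4 MI libraries were higher. The differences of the means were -7.40 and 5.63 percentage points. The second turned to -2.43 points when Tlr11, Tlr12 and Tlr13, further endosomal receptors of the mouse, were counted in, which left the first at -11.2 points. Without Tlr2 the second was 3.05 points, and the groups overlapped.

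**Figure D3:**
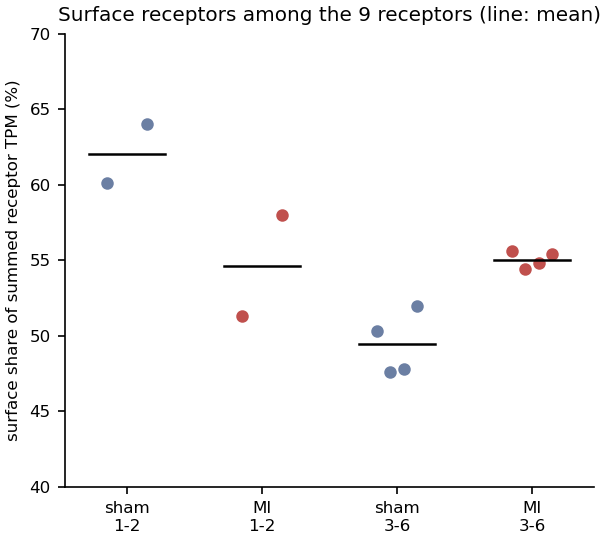
Share of Tlr1, Tlr2, Tlr4, Tlr5 and Tlr6 in the summed TPM of Tlr1 to Tlr9, in percent, with 1 point per library and a line at the group mean. The axis does not start at 0. MI libraries lie below sham in replicates 1 and 2 (51.3% and 58.0% against 60.1% and 64.0%) and above sham in replicates 3 to 6.

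Tlr13, a mouse receptor for bacterial ribosomal RNA, carried that reversal. It read 7.40 and 5.29 CPM in sham replicates 1 and 2 and 5.34 to 7.12 CPM in sham replicates 3 to 6. MI libraries read 31.8 and 87.1 CPM, and then 47.7 to 51.1 CPM. Its log2 fold change of 3.12 (SE 0.22, adjusted p = 1.01e-07 and 0.0023) was, over 12 libraries, larger than that of any of the 10 genes. Tlr11 and Tlr12 did not pass the filter on low counts.

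By TPM, Myd88 was the highest of the 10 genes in every set and group, at means of 13.7 (sham) and 57.4 (MI) in replicates 1 and 2 and 11.6 and 30.7 in replicates 3 to 6. In replicates 1 and 2 the sham order of the receptors was Tlr2 (5.57), Tlr3 (3.76), Tlr4 (3.45), Tlr7 (2.04), Tlr6 (1.67), Tlr8 (0.845), Tlr1 (0.705), Tlr9 (0.585) and Tlr5 (0.425), where the libraries of Tlr7 and Tlr6 overlapped. In MI of that set it was Tlr2 (43.4), Tlr7 (20.8), Tlr8 (16.6), Tlr3 (16.0), Tlr1 (12.2), Tlr6 (9.80), Tlr4 (9.64), Tlr9 (8.60) and Tlr5 (1.72). Neighbours from Tlr7 down to Tlr9 overlapped there, as did Myd88 and Tlr2, so that the order among them is not resolved. Tlr4 went from the third receptor in sham to the seventh in MI, where it overlapped Tlr6 above it and Tlr9 below it.

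In sham replicates 3 to 6, Tlr3 (5.34), Tlr4 (5.09), Tlr7 (4.84) and Tlr2 (4.202) followed Myd88, each overlapping its neighbour down to Tlr2. Below them stood Tlr8 (2.04), Tlr1 (1.62), Tlr5 (0.688), Tlr6 (0.558) and Tlr9 (0.243). In MI of that set Tlr2 (20.2) stood apart at the head, before Tlr7 (15.2), Tlr4 (13.6), Tlr8 (12.3), Tlr3 (11.9), Tlr1 (9.31), Tlr6 (5.71), Tlr9 (1.29) and Tlr5 (0.875). Among Tlr1 to Tlr9, Tlr5 was thus the least expressed in MI libraries of both sets. Tlr13 read 23.7 to 25.3 TPM in MI replicates 3 to 6, above Tlr2 there, and Tlr11 and Tlr12 lay below Tlr5 in all MI libraries.

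Of the 10 genes, 1 differed between the sets in the size of its rise by both tests. By edgeR's interaction of set and group over 12 libraries, the log2 fold change was smaller in replicates 3 to 6 for 7 of 10 genes and larger for 0 (0 also at an unadjusted p under 0.05), where 24.8% and 27.6% of all genes passed in those directions. The 7 were Tlr1, Tlr3, Tlr5, Tlr7, Tlr8, Tlr9 and Myd88. That test takes replicates 3 to 6 as independent. With them also counted once, the gene that passed both tests was Tlr7 (difference -1.62, adjusted p = 2.01e-05 and 0.0471), beside 3.41% of all genes in that direction and 6.14% in the other. That call was lost when sham replicate 1, 2, 3 or 5 was left out, while 4 genes passed without MI replicate 1 and 2 without MI replicate 2. In sham, 6 of 10 genes (Tlr1, Tlr3, Tlr4, Tlr5, Tlr7 and Tlr8) were lower in both libraries of replicates 1 and 2 than in all 4 of replicates 3 to 6, and 2 (Tlr2 and Tlr9) were higher. In MI, 5 (Tlr2, Tlr5, Tlr6, Tlr9 and Myd88) were higher in replicates 1 and 2, 1 (Tlr4) was lower, and 4 (Tlr1, Tlr3, Tlr7 and Tlr8) overlapped. The matching shares over all genes were not counted, so these counts are not read as particular to the 10 genes. MI replicates 1 and 2 themselves differed, by a factor of 1.74 for Tlr2, 1.81 for Tlr8, 0.679 for Tlr3 and 0.907 for Myd88 (replicate 2 over replicate 1, CPM).

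Levels were also set against the summed macrophage and monocyte markers, whose genes are known from cells that carry many of these receptors. One of the 14, the lysozyme gene Lyz2, made up 34.7% to 43.5% of the sum in sham and 58.2% to 68.2% in MI, so each ratio is given with all 14 and again with the 13 other markers. These ratios divide values of the same libraries and are a description with no test.

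Tlr8 and Tlr1 were higher per marker in MI with both sums. The log2 ratio of MI to sham was 0.79 and 0.43 for Tlr8 (replicates 1 and 2, then replicates 3 to 6) with 14 markers, and 1.46 and 1.25 without Lyz2. Tlr1 gave 0.62 and 0.39, and 1.28 and 1.2 without Lyz2. Within each set the MI libraries of both genes lay above the sham libraries with either sum. Tlr9 gave 0.44 and 0.25, with groups that overlapped in replicates 3 to 6, and 1.12 and 1.07 without Lyz2, where they did not.

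Tlr5 and Tlr3 were lower per marker in MI with both sums. Tlr5 gave -1.32 and -1.78, and -0.62 and -0.96 without Lyz2. Tlr3 gave -1.22 and -0.99, and -0.53 and -0.17 without Lyz2, where its groups overlapped in replicates 3 to 6. For Tlr2, Tlr4, Tlr7 and Myd88 the sign of the ratio depended on Lyz2 in at least 1 set. In replicates 1 and 2, Tlr4 and Myd88 were lower in MI with either sum. Tlr4 gave -1.93 and -0.73 with 14 markers and -1.25 and 0.09 without Lyz2. Myd88 gave -1.29 and -0.74, with MI below sham within each set, and -0.61 and 0.08 without Lyz2. Tlr7 went from -0.17 and -0.55 to 0.51 and 0.27, and Tlr2 from -0.50 and 0.12 to 0.17 and 0.94. Tlr6 stayed on opposite sides of 0 in the 2 sets (-0.77 and 0.97, then -0.09 and 1.80).

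**Figure D4:**
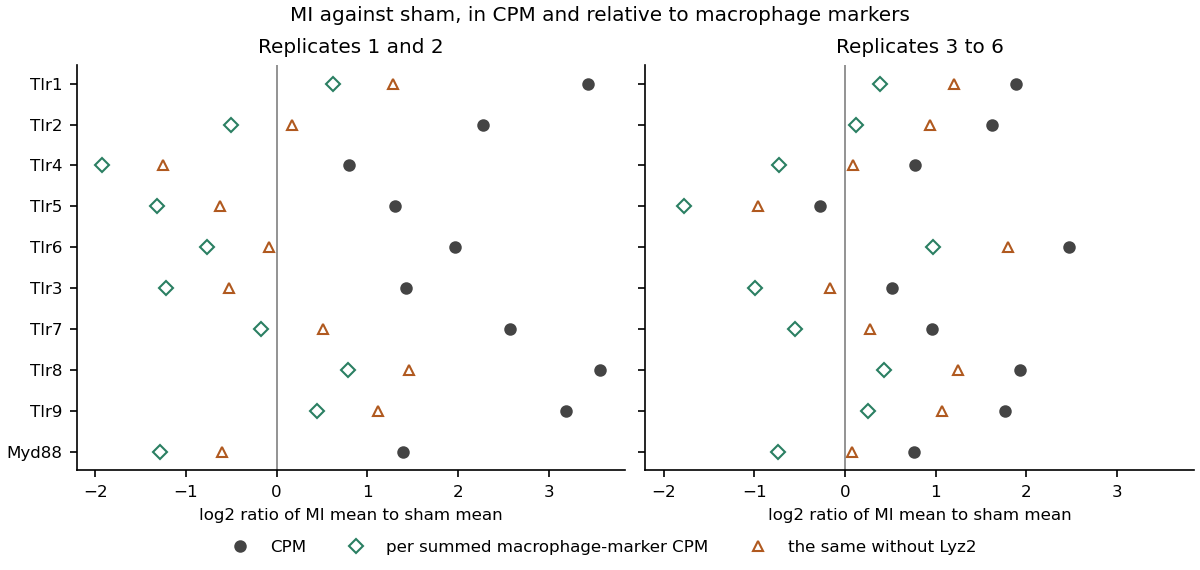
Log2 ratio of the MI mean to the sham mean for each gene, in CPM (filled circles), per summed CPM of 14 macrophage and monocyte markers (open diamonds) and per the same sum without Lyz2 (open triangles), by set. Diamonds and triangles of Tlr1, Tlr8 and Tlr9 lie right of 0 in both sets and those of Tlr3 and Tlr5 left of 0, while for Tlr2, Tlr4, Tlr7 and Myd88 they part in at least 1 set.

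Other leukocyte markers were lower in sum than those of macrophages. Neutrophil markers summed to 2.98 to 3.65 CPM in sham and 29.5 to 57.5 CPM in MI for replicates 1 and 2, and to 12.7 to 13.7 and 31.0 to 34.3 CPM for replicates 3 to 6, with 4 of 8 tested called. Most of the sum in MI was Csf3r, at 20.5 and 47.0 CPM in MI replicates 1 and 2. Of the defining genes, Mpo and Camp were at 0 in both sham sets, and Ly6g stood at no more than 0.124 CPM in any library. B-cell markers, of interest because B cells carry Tlr9, summed to 2.53 to 2.60 and 5.02 to 8.53 CPM in the first set and to 6.07 to 8.45 and 4.12 to 6.59 CPM in the second, and their 6 tested genes were not called. Dendritic-cell markers summed to 22.4 CPM in sham and 44.4 to 116 CPM in MI for replicates 1 and 2, and to 35.3 to 36.3 and 50.7 to 53.9 CPM for replicates 3 to 6, with 4 of 9 called. Fibroblast markers, 5 of 6 called, went from 2010 to 2270 CPM up to 38800 to 49900 CPM in the first set and from 2360 to 2480 CPM up to 16000 to 16100 CPM in the second. The part of any of these cells in the receptors' levels was not tested. By the call rule used for these markers, 27.5% of all genes rose.

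The sequence before the start site is shown for 5 genes that differed in response, Tlr8, Tlr9 and Tlr2 among the larger rises, Myd88 with a smaller one and Tlr5 with no call. RefSeq promoters (GRCm38.p6) were matched for 8 of the 10 genes. 4 motifs known from leukocyte and inflammatory promoters were searched on both strands of the 250 bases before each start: the PU.1 core GAGGAA, the interferon-stimulated response element (GAAA, any 2 bases, then GAAA), the AP-1 site TGANTCA and the NF-kB consensus. Capitals mark matches, and each sequence reads 5′ to 3′ along the gene, leaving out annotated exons.
Tlr8, chrX:167264330-167264579, minus strand: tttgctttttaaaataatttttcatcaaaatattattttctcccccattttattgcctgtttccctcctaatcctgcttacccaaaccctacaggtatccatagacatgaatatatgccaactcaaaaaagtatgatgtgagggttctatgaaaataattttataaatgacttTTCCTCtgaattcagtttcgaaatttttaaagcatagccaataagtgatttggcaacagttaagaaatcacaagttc
Tlr9, chr9:106222348-106222597, plus strand: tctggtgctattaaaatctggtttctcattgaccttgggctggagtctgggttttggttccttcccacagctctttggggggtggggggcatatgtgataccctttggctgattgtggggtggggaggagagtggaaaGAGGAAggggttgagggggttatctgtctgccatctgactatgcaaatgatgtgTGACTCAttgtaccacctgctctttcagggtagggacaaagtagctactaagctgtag
Tlr2, chr3:83841768-83841858, minus strand: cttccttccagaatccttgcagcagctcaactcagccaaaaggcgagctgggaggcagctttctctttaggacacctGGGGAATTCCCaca
Myd88, chr9:119340042-119340268, minus strand: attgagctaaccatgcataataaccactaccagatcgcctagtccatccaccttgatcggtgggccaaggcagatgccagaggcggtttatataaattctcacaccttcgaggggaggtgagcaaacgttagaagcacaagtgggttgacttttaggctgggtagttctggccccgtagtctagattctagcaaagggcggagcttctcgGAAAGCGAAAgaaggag
Tlr5, chr1:182954538-182954787, plus strand: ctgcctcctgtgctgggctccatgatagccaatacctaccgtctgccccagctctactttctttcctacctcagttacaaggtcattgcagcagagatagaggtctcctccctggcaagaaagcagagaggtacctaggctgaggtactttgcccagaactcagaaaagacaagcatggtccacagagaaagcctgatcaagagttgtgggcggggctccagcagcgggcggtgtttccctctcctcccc

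Tlr8 holds the PU.1 core on the opposite strand, 77 to 72 bases before its start. Tlr9 holds it 112 to 107 bases before its start, with an AP-1 site at 58 to 52 bases. Tlr2 holds 2 overlapping NF-kB matches between 173 and 163 bases before its start, and Myd88 an interferon-stimulated response element at 40 to 31 bases. Positions count from the RefSeq start, which for Tlr2 and Myd88 lies inside the GENCODE gene. Their last 159 and 23 bases before that start lie in annotated exons and are not shown. None of the 4 motifs was found in the 250 bases shown for Tlr5. Over all 32851 promoters of the table, the PU.1 core was found in 23.3%, the interferon element in 3.0%, the AP-1 site in 6.7% and the NF-kB consensus in 7.3%. The 8 matched genes had 10 promoters, and a gene was counted if any of its promoters held a match. By gene the counts were 3 (Tlr1, Tlr8 and Tlr9), 2 (Myd88 and Tlr6), 1 (Tlr9) and 2 (Tlr2 and Tlr3). They are per gene and the shares are per promoter, so the 2 are not directly comparable. A match is a description of the letters and not a site of binding.

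Transcripts of proteins that bring ligands to the surface receptors rose with those of the receptors in most cases. Of 9 co-receptor and delivery genes, 7 rose, Cd36 fell and Ly96 was not called, where 27.5% of all genes tested rose and 29.0% fell. Their median log2 fold change was 2.05 against 0.02 for all genes. Cd14, which hands lipopolysaccharide to Tlr4, rose by 2.05 (SE 0.168, adjusted p = 3.66e-07 and 0.00194), from 21.3 to 128 CPM in replicates 1 and 2 and from 15.01 to 50.8 CPM in replicates 3 to 6. Ly96 (MD-2), the subunit of Tlr4 that binds the lipid, had a log2 fold change of 0.42 (adjusted p = 0.0749 and 0.212). Cd180 and its partner Ly86, a receptor pair related to Tlr4 and Ly96, rose by 3.21 and 2.35. Cd36, a scavenger receptor that also takes up fatty acids in cardiomyocytes, fell by 1.76, from 1134 to 172 CPM in the first set.

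Genes of receptor folding, trafficking and endosomal processing rose in 13 of 15 tested cases and fell in 0, beside 27.5% and 29.0% of all genes. Their median was 1.23. Unc93b1, the chaperone that carries nucleic acid receptors to endosomes, rose by 1.69 (SE 0.21, adjusted p = 1.31e-05 and 0.00431). Its mean CPM went from 40.9 to 240 in replicates 1 and 2 and from 43.0 to 103 in replicates 3 to 6. The cathepsins that trim the endosomal receptors also rose, Ctss by 4.35 and Ctsb by 1.49. Tmed7 and Pik3c3 were not called.

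Of 20 adaptors and proximal kinases tested, 7 rose, 5 fell and 8 were not called, with a median of 0.19. These counts are near the share over all genes, of which 27.5% rose and 29.0% fell. Ticam2 (TRAM), which links Tlr4 to Ticam1, rose by 1.63, and Irak4, the first kinase recruited by Myd88, rose by 1.05. Pik3ap1, an adaptor that ties receptors to phosphoinositide 3-kinase, rose by 2.75 (SE 0.188). Irak1, the kinase that Irak4 activates, fell by 0.51 (SE 0.0562, adjusted p = 4.89e-06 and 0.00978), from 129 to 85.8 CPM in the first set and from 111 to 79.9 CPM in the second. Tab1, Ube2n and Ube2v1, which serve the next step around Traf6 and Tak1, fell by 0.63, 0.45 and 0.50. Traf6 (0.17, adjusted p = 0.094 and 0.227), Ticam1 (0.20, adjusted p = 0.0994 and 0.827) and Tirap (0.49, adjusted p = 6.72e-04 and 0.0946), the bridge between Myd88 and the surface receptors, were not called.

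Of 22 downstream kinases and transcription factors, 10 rose and 6 fell, with a median of 0.35, beside the same 27.5% and 29.0% over all genes. Irf7, the interferon regulator that Tlr7 and Tlr9 engage, rose by 2.81 (SE 0.135), from 61.2 to 366 CPM in replicates 1 and 2 and from 26.5 to 201 CPM in replicates 3 to 6. The kinases Map2k3 and Map2k6, which activate p38, fell by 0.67 and 1.04. Among 19 negative regulators 9 rose, 1 fell and 9 were not called (median 0.27). Atf3, a repressor of inflammatory genes, rose by 2.79, and Lilrb4a, an inhibitory receptor of myeloid cells, by 2.56. Tollip, which holds back Irak1, fell by 0.79 (SE 0.0765, adjusted p = 1.54e-06 and 0.00337). Irak3, a kinase-like inhibitor found in myeloid cells, was not called, with 1.25 in the first set and -0.16 in the second, and neither was Sigirr (-0.23).

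Genes of endogenous ligands were among the larger rises, 8 of 14 called higher and 1 lower, beside 27.5% and 29.0% of all genes. Their median was 2.83, which includes the fitted values of Sftpa1 and Sftpd, 2 genes near 0 in sham. Tnc and Fn1, matrix proteins that Tlr4 can sense, rose by 6.24 (SE 0.19) and 5.40 (SE 0.147), and Bgn, a proteoglycan sensed by Tlr2 and Tlr4, by 2.94. Tnc went from 3.25 to 181 CPM in replicates 1 and 2 and from 1.87 to 177 CPM in replicates 3 to 6. Hspd1, a mitochondrial chaperone, fell by 1.501. Hmgb1, S100a8, S100a9, Sftpa1 and Sftpd were not called, and Sftpa1 and Sftpd are among the surfactant genes of MI replicates 3 to 6.

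Target genes were higher in both arms. Of 16 NF-kB targets tested 12 rose, Sod2 fell and 3 were not called (median 2.11). Of 10 genes of the TRIF and interferon arm all 10 rose (median 2.34), where 27.5% of all genes rose and 29.0% fell. Il6 rose by 4.95 (SE 0.385), from 0.0754 to 3.33 CPM in the first set and from 0.178 to 5.23 CPM in the second. The chemokines Ccl2 and Cxcl10, which draw monocytes and T cells, rose by 3.01 and 4.33. Isg15, an interferon-induced modifier, rose by 2.62. Sod2, an NF-kB target that is also a mitochondrial enzyme abundant in heart muscle, fell by 2.37. Il10 and Csf3 among the first list and Ifnb1 in the second did not pass the filter on low counts.

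Myd88 also serves the interleukin 1 family. In that family 9 of 10 genes rose and 0 fell, beside 27.5% and 29.0% of all genes, with a median of 1.77. Il1r1, the signalling receptor for interleukin 1, rose by 1.78 (SE 0.276), from 11.9 to 99.0 CPM in replicates 1 and 2 and from 30.7 to 69.4 CPM in replicates 3 to 6. Il33, an alarm cytokine of stromal cells, rose by 2.17, and Il1rn, the natural antagonist of interleukin 1, by 5.25. Il1rl1, the receptor for Il33, was not called.

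**Figure D5:**
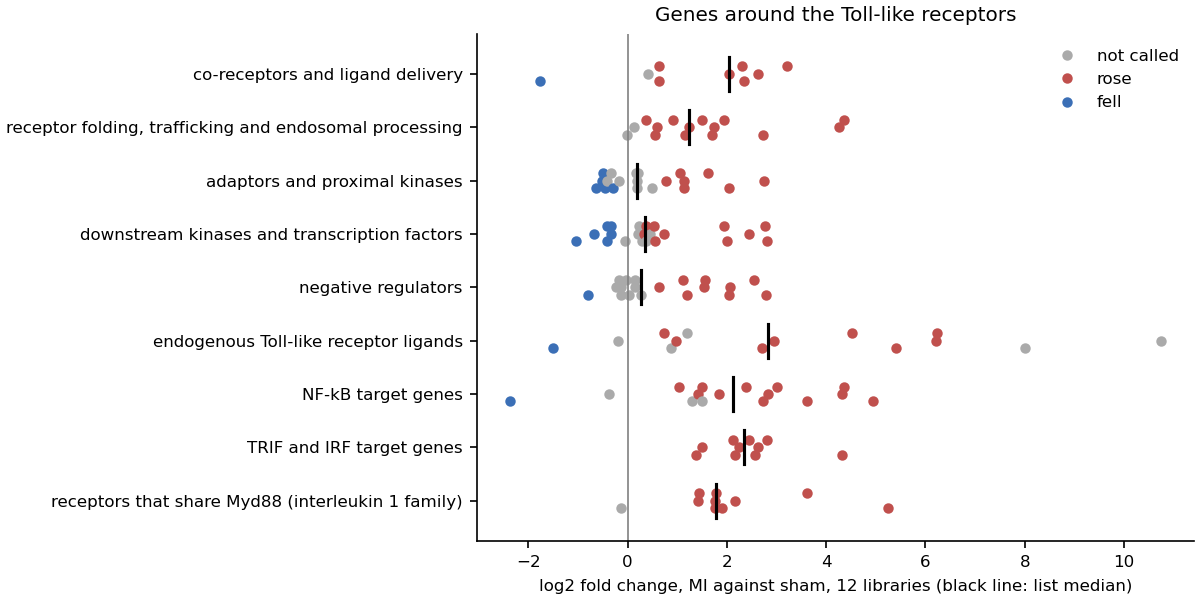
Log2 fold change over 12 libraries for each tested gene of each list, 1 point per gene, marked by its call (rose, fell or not called), with a line at the list median. Points of the trafficking list and of the interferon arm lie mostly right of 0, and those of the adaptors and proximal kinases lie on both sides, with a median of 0.19. The 2 uncalled ligands at the far right are Sftpa1 and Sftpd, near 0 in sham, whose fitted values have no true size.

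Across the 12 libraries, the genes with the level most like that of each member were found by Pearson's r of log2 CPM, which is a description because all of them share the difference between MI and sham. Nearest to Tlr1 were Plek (0.997), Msr1 (0.995) and Cd84 (0.993), genes known from phagocytes and platelets. Nearest to Tlr8 were Pqlc3, Ms4a6d (both 0.996) and Clec4n (0.994), and nearest to Tlr7 were Fcgr2b (0.994), Epsti1 (0.993) and Ctsh (0.992). Tlr2 lay closest to Ass1 (0.996), Tlr9 to Cebpa (0.994), Myd88 to Oas1a (0.994) and Tlr4 to Golga7 (0.999), a broadly expressed gene of protein palmitoylation. Tlr3 (at most 0.973, with Nktr) and Tlr5 (at most 0.933, with Chrd) had no gene as close. With the means of group and set taken out, Tlr1 lay closest to Clec7a (0.988), Tlr2 to Ran (0.976) and Tlr3 to Dpysl3 (0.98). Tlr4 lay closest to Stx3 (0.974), Tlr5 to Ipo4 (0.949), Tlr6 to Cmip (0.925) and Tlr7 to Rubcnl (0.96). For Tlr8, Tlr9 and Myd88 the genes were Trpm7 (0.983), Naip5 (0.972) and Ccnt2 (0.92). Such values can rest on few libraries. Tlr1 read 8.72 and 20.6 CPM in MI replicates 1 and 2, against 12.1 to 13.6 CPM in MI replicates 3 to 6.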

How the data were processed

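Poly(A) RNA of 12 libraries was sequenced, per the labels' protocols, with GRCm38 named for all libraries and Bowtie2, RSEM and DESeq2 named, without versions, for replicates 3 to 6, per the submitters' processing notes. The deposited table holds expected counts (unscaled), TPM and FPKM that the authors scaled by gene length and library. A further deposited table gives FPKM for replicates 1 and 2. Of the expected counts, 42.9% are not whole. Genes blank in replicates 1 and 2 (425 of 18050) were left out, which left 17625.

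After rounding, expected counts went into edgeR 4.0.16 under R 4.3.3 (TMM, filterByExpr, quasi-likelihood, set as covariate, Benjamini-Hochberg adjustment over all genes tested). Where 2 adjusted p-values are given, the first is from all 12 libraries and the second with replicates 3 to 6 summed and counted once per group. Each standard error is the absolute log2 fold change divided by the square root of F. Exact permutation tests were two-sided. Within replicates 3 to 6, p-values are too small if these are repeat libraries. Scripts were tested on simulated data. The order of the members' levels is given by TPM. Marker sums, and the shares of single genes in them, use CPM, which is not scaled by length.

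Members and lists were chosen with earlier results of these data known. Of the list symbols, Tasl, Fga, Mx1, Trac and Scgb3a2 were not listed in the table. Named genes are the members, their direct partners, and from each pathway list the 2 most abundant genes with the largest rise and fall among called ones. Other genes named are exceptions within a list, picked with their values in view. Alternatives covered scaling, DESeq2 1.42.0, limma 3.58.1 on log2 FPKM (pseudocounts 1 and 0.1), filters, thresholds, covariates and leaving out each library.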

Additional observations from a re-analysis of the deposited data

Results flagged for a closer look

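The log2 fold change of MI over sham differed between the sets by edgeR's 12-library interaction test for 7 genes, each smaller in replicates 3 to 6 than in replicates 1 and 2. Among all genes tested, 24.8% passed that test as smaller and 27.6% as larger, and by both tests 3.41% and 6.14%. The differences were -1.54 for Tlr1, -1.57 for Tlr5, -0.90 for Tlr3, -1.62 for Tlr7, -1.63 for Tlr8, -1.43 for Tlr9 and -0.62 for Myd88. With replicates 3 to 6 counted once, the difference passed for Tlr7 (adjusted p = 0.0471) and missed the threshold for the others (adjusted p from 0.112 for Myd88 to 0.234 for Tlr1).

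Some single libraries lay far from the others, for MI within the group of 6 and for sham within replicates 3 to 6. Tlr2 read 67.3 CPM in MI replicate 2, Tlr3 read 35.4 CPM in MI replicate 1, and Tlr7 read 53.0 CPM in MI replicate 2. Within sham replicates 3 to 6, Tlr7 read 16.9 CPM in replicate 6. At its nominal rate the rule used, Dixon's outlier rule, marks about 1 in 20 such groups by chance alone. That rate was not checked on these data.

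The surface share of summed receptor TPM was lower in both MI libraries of replicates 1 and 2, by -7.40 percentage points on average, and higher in all 4 MI libraries of replicates 3 to 6, by 5.63 points. The difference between the sets was not tested.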

How the results depend on the processing

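The count of members that rose was 9 and stayed between 6 and 10 under every alternative run, and the count that fell was 0 in all. It was 8 of 8 tested with limma on log2 FPKM, where Tlr5 and Tlr9 were filtered out, 8 without the set covariate (Tlr4 lost) and 8 at an adjusted p under 0.01 (Tlr3 lost). At a change of at least 2-fold it was 6 (Tlr3, Tlr4 and Myd88 lost), and in replicates 1 and 2 alone, added after seeing the data, 10 with Tlr5 (1.30). Of 256 alternatives for single members, 248 kept the call and 0 reversed. These include each of the 2 tests taken alone, which a gene called by both passes by construction. Leaving out each library gave 8 to 9 members. The count within replicates 1 and 2 was then 9 to 10, and within replicates 3 to 6 it was 9 throughout. The count of members whose rise differed between sets, 1 by both tests, was 0 with library size alone and 0 to 4 without single libraries. By the 12-library test alone that count, 7, was 8 with library size alone and ran from 6 to 8.

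Replicate numbers did not pair the samples (correlations of same-numbered libraries from -0.0402 to 0.0597). With the replicate block 9 members rose and 0 fell. The surface share difference in replicates 3 to 6, 5.63 points, was 1.98 with CPM, 3.05 without Tlr2 and -2.43 with Tlr11, Tlr12 and Tlr13 counted in, a choice made after seeing the data. Leaving Lyz2 out of the macrophage marker sum, also chosen after seeing the data, turned the log2 ratio per marker of Tlr2 to 0.17 and of Tlr7 to 0.51 in replicates 1 and 2, and of Tlr4 to 0.0901, Tlr7 to 0.27 and Myd88 to 0.0801 in replicates 3 to 6. Over all genes 3913 rose and 4122 fell, against 6421 and 2514 with library size alone, whose median log2 fold change was 0.43, 2305 and 2216 without the set covariate, and 2437 and 2429 fell with limma at pseudocounts of 1 and 0.1. Leaving out single libraries gave 2295 to 3960 that rose and 2808 to 4124 that fell. At an adjusted p under 0.01, 2178 rose, and at 2-fold 2425 rose and 2133 fell. Depth limits Tlr5 and Tlr9 most, with at most 40 counts per library in replicates 3 to 6. In sham of that set Tlr6 was also low, with 8.57 to 24.98 counts.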
